A study of Mus musculus with 18 samples.

Results

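The hippocampus of mice reared for 12 months (12 m) was compared with the hippocampus of mice that had undergone intermittent hypoxia treatment for 28 days (IH28D). These are 6 of the 18 arrays of the series, 3 for each group, chosen by their sample labels, and all probe sets were considered. All mice are labelled C57Bl/6, and the methods give them as C57BL/6J males. The 12 m mice were kept without hypoxia. The IH28D mice, 10 weeks old when the treatment began, spent 8 h of each day in cycles of 3 min, in which nitrogen flowed for 1 min and room air for 2 min and inspired oxygen swung between 21% and 5%. Killing followed directly on their final session, and no hour is given for the 12 m mice. The groups thus differ in age and in hypoxia together, and these cannot be told apart in this comparison. The other 12 arrays (IH5D, IH5DR2, Ctrl28 and Ctrl, with 3 arrays each) entered the estimate of the spread and are otherwise given only for context. Since no source states that different mice were used for different arrays, every p-value refers to array-to-array spread, which may be technical.

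The hippocampus holds the granule neurons of the dentate gyrus and the pyramidal neurons of the CA fields, whose excitatory synapses take part in memory formation. Along its edge it adjoins the lateral ventricle with the choroid plexus, an epithelium that secretes cerebrospinal fluid, and with the ciliated ependymal cells of the ventricle wall. Repeated hypoxia models the breathing pauses of sleep apnea, in which oxygen sensing, stress hormones and neuronal activity can all act on transcription. Aging of the hippocampus is known for changes in glia and synapses. In tissue RNA of this kind, fewer cells of a type and less RNA per cell cannot be told apart.

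Array 3 of 12 m stood apart in the markers of brain regions. The mean log2 signal of 12 dentate granule cell genes was 5.85 on this array, against 7.28 and 7.41 on the other 12 m arrays and 7.24 to 7.42 on the IH28D arrays. For 13 genes of pyramidal neurons of the CA fields the level was 6.85, against 8.16 and 8.21 on the other 12 m arrays and 8.19 to 8.35 on IH28D arrays. Markers of the neocortex ran the other way, at 8.56 on this array, 7.31 and 7.41 on the other 12 m arrays and 7.30 to 7.51 on IH28D arrays, and so did those of striatum and septum, at 7.82, against 6.77 and 6.88 on the other 12 m arrays and 6.84 to 7.18 on IH28D arrays. Dsp, which encodes desmoplakin and marks dentate granule cells, had signals of 239.5, 227.7 and 9.13 on 12 m arrays 1 to 3, against 236.6, 261.7 and 251.8 on IH28D arrays. Fibcd1, a marker of CA1, had 192.5, 207.7 and 5.05, against 201.4, 183.3 and 254.6. Tbr1, a transcription factor of deep cortical layers, had 115.5, 153.6 and 447, against 108.8, 113 and 187.4. On array 3 of 12 m the hippocampal markers Dsp and Fibcd1 were thus near the bottom of the scale, while the other 5 arrays carried them at like levels. What tissue this array held was not tested, and some results are also given without it. Differences given only with it can be smaller or larger without it. Examples are Gdf10 (-1.02 with it and -0.71 without) and Cdk5r2 (-0.91 and -1.06).

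**Figure D1:**
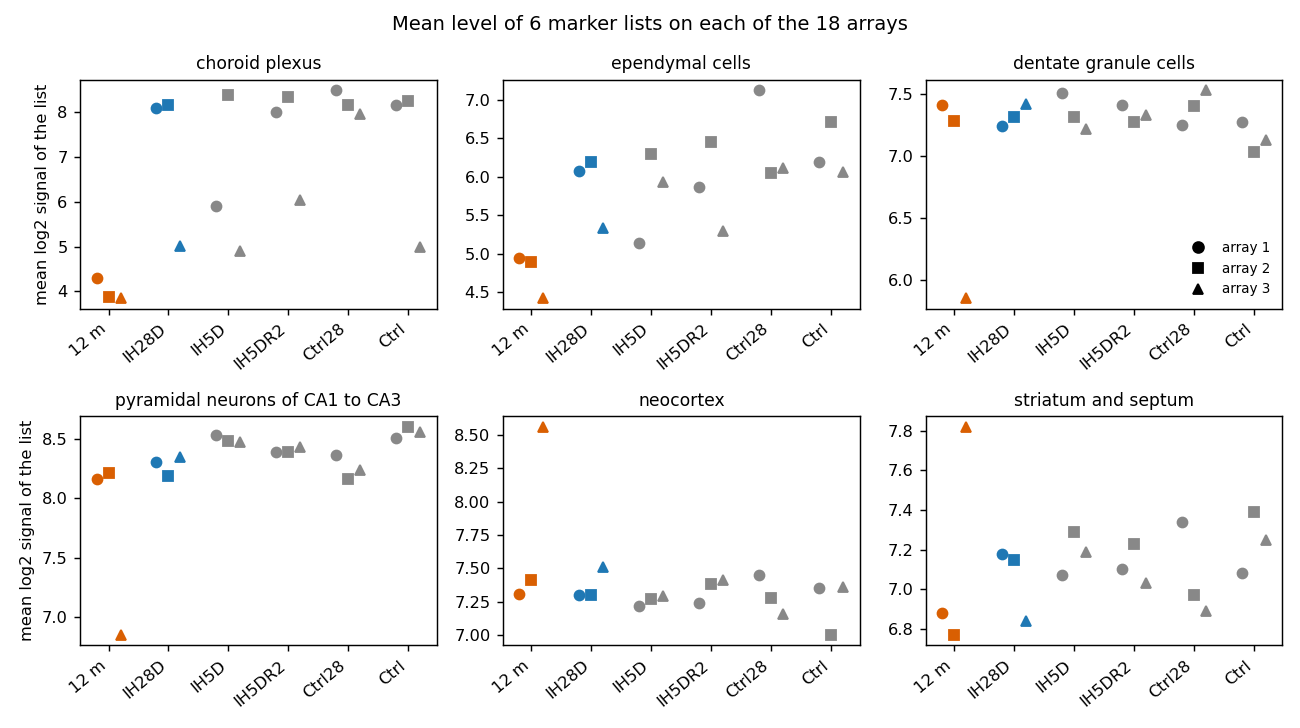
Mean log2 signal of 6 marker lists (vertical axis) on each array of the 6 groups (horizontal axis), with 12 m in orange, IH28D in blue and the other groups in grey, and circles, squares and triangles for arrays 1, 2 and 3. The third 12 m array lies apart for dentate, pyramidal, neocortical and striatal markers, and all 12 m arrays lie below all IH28D arrays for choroid plexus and ependymal markers.

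The excess of log2 signal at the 3' over the 5' end of the Actb and Gapdh transcripts, which grows as RNA degrades and is called the end gap here, also separated the groups. It was 0.617, 0.862 and 0.786 on the 12 m arrays and 0.328, 0.422 and 0.338 on the IH28D arrays, with means of 0.755 ± 0.125 in 12 m and 0.363 ± 0.0514 in IH28D (SD, n = 3 arrays each; exact permutation test, two-sided p = 0.1, the smallest that 3 against 3 arrays allow). The Ctrl28 arrays ranged between 0.822 and 2.39, and IH5D, IH5DR2 and Ctrl arrays between 0.339 and 0.535. The part of this gap in the results below was not tested beyond the fit that holds it as a covariate. That fit cannot decide it, as the gap did not overlap between 12 m and IH28D and varied most within Ctrl28. Log2 signals of all probe sets correlated at 0.879 to 0.886 within 12 m, 0.886 to 0.890 within IH28D and 0.874 to 0.888 between the groups, which is a description over arrays of one platform.

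Between 12 m and IH28D hippocampi few genes passed the test. Of 11656 genes, each represented by its brightest probe set, 54 had an adjusted p below 0.05, which is 0.463%. Signals of 18 genes (0.154%) rose in 12 m and those of 36 (0.309%) fell, and of these 15 rises and 11 falls were at least 2-fold. Without adjustment 767 genes (6.58%) had higher and 1297 (11.1%) had lower signals in 12 m at p below 0.05. These shares are the background for the unadjusted counts of every gene list below. The median log2 difference of all genes was -0.06, and the median size of the difference was 0.22. For 9400 genes (80.6%) the 95% interval of the difference lay within 2-fold either way. The 12 m and IH28D arrays did not overlap in 26.1% of all genes, with 12 m above in 10.8% and below in 15.3%.

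The number of calls rested on which arrays set the spread. Without the Ctrl28 arrays, whose end gap was the largest, 635 genes passed (5.45%), 280 higher (2.4%) and 355 lower (3.05%) in 12 m. All 54 genes were among them. Without array 3 of 12 m no gene passed in limma, with 573 higher and 960 lower at unadjusted p below 0.05. Leaving out array 3 of 12 m and the Ctrl28 arrays together gave 132 rises and 194 falls, among them 52 of the 54 genes, the exceptions being Fmn1 and Trbv1. With array 1 of IH28D left out 1 gene rose and none fell, and with array 3 of IH28D left out none passed, at 511 higher and 867 lower genes, and at 546 and 1044, by unadjusted p below 0.05.

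**Figure D2:**
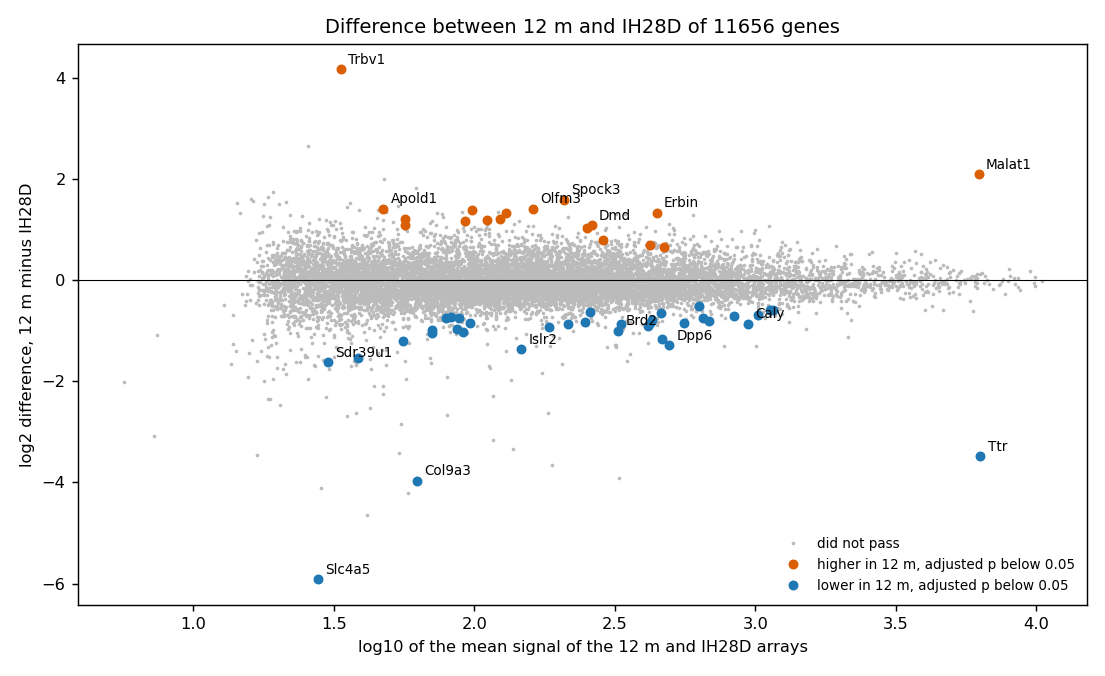
Log2 difference of 12 m minus IH28D (vertical axis) against the log10 of the mean signal of both groups (horizontal axis) for 11656 genes. Genes in orange rose and genes in blue fell at adjusted p below 0.05, and Ttr and Malat1 stand out among the brightest.

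Genes of the choroid plexus had the lowest signals in 12 m relative to IH28D. Of 17 tested genes of this epithelium, 2 fell and none rose (0.309% of all genes fell), all 17 differences were below 0, and their median was -3.17, against -0.06 over all genes. In 12 of the 17 all 12 m arrays lay below all IH28D arrays (70.6%, against 15.3% of all genes). Ttr, transthyretin, which carries thyroxine and retinol-binding protein and is the main secreted product of the choroid plexus, had signals of 1602, 564.9 and 857.8 in 12 m, against 14640, 15460 and 4774 in IH28D. The lowest IH28D array thus lay above the highest 12 m array, and Ttr fell by 3.48 on the log2 scale (SE 0.69, adjusted p = 0.0365). Its 4 probe sets gave differences between -3.48 and -4.52. Slc4a5, a sodium bicarbonate cotransporter of this epithelium, was near the bottom of the scale in 12 m with signals of 1.83, 0.267 and 0.399, against 69.5, 87.7 and 7.01 in IH28D. It fell as well (log2 difference -5.92 ± 1.26, SE; adjusted p = 0.0438), although with 20 added to each signal the difference was -1.62 and did not pass (adjusted p = 0.182).

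Further choroid plexus genes showed the same arrays as high and low without passing. Otx2, the homeobox factor that maintains this epithelium, had 5.09, 5.84 and 0.421 in 12 m, against 114.6, 108.6 and 15.7 in IH28D (log2 difference -4.64, adjusted p = 0.0544). Clic6, an intracellular chloride channel protein, had 15.6, 14.3 and 31.3, against 488.7, 526 and 55.6 (-3.66, adjusted p = 0.0959). Ecrg4, which encodes a secreted peptide precursor, had 26.9, 31.5 and 25.1, against 932.7, 859.9 and 89.2 (-3.90, adjusted p = 0.108). In each of these genes array 3 of IH28D lay between the 12 m arrays and the other IH28D arrays. The mean level of the list was 4.29, 3.88 and 3.85 in 12 m and 8.08, 8.14 and 5.02 in IH28D. Low levels occurred in other groups too, with 5.91 and 4.89 on arrays 1 and 3 of IH5D, 6.03 on array 3 of IH5DR2 and 4.99 on array 3 of Ctrl. How much choroid plexus each dissection held was not tested.

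Ependymal genes were lower in 12 m to a smaller degree. All 10 tested members had differences below 0, with a median of -1.02, and none passed (7 at unadjusted p below 0.05). Without the Ctrl28 arrays 4 fell, where 3.05% of all genes did. Cfap126, a protein of motile cilia, had 25.8, 18.8 and 23.3 in 12 m, against 83.4, 90.7 and 49.1 in IH28D (log2 difference -1.68, adjusted p = 0.067). Foxj1, the transcription factor that drives the motile cilia program, had 11.9, 15.2 and 5.98, against 39.3, 47.1 and 34.2 (-1.96, adjusted p = 0.107). Both genes separated the groups without overlap. Mia and Rsph1, a radial spoke protein of cilia, differed by -1.66 and -0.96 (adjusted p = 0.0687 and 0.107). Col9a3, a chain of type IX collagen, was not in these lists and fell by 3.97 (SE 0.79, adjusted p = 0.0365). Its signals were 12.8, 1.27 and 16.9 in 12 m, against 122.9, 169.6 and 50.8 in IH28D, so that array 3 of IH28D was again the lowest of its group.

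The largest rise of a bright transcript in 12 m was that of Malat1, a long noncoding RNA that is kept in nuclear speckles. Its signals were 6700, 12890 and 10800 in 12 m, against 2145, 2712 and 2073 in IH28D, a rise of 4.26-fold (log2 difference 2.09 ± 0.35, SE; adjusted p = 0.0246). The lowest 12 m array thus lay well above the highest IH28D array. Its 7 probe sets all had higher means in 12 m, by 0.73 to 2.54 on the log2 scale. With the end gap as covariate the difference was 2.52. That fit cannot tell the gap from the group, since the gap did not overlap between 12 m and IH28D. It varied most within Ctrl28, where Malat1 had 1117 on array 1, which had the largest gap, and 4029 and 4066 on the others. Of 18 long noncoding RNAs tested, Malat1 alone passed, and the median of the list was 0.12. Neat1, the RNA that builds paraspeckles, had 470.5, 431.1 and 453.1 in 12 m, against 164.3, 232 and 157.7 in IH28D (1.31, adjusted p = 0.067), while a dim second probe set of it differed by -0.03. Snhg14, a transcript of the imprinted Ube3a region, differed by 0.87 (adjusted p = 0.138). Rian, an imprinted noncoding RNA, had 489.1, 497.4 and 353.3 in 12 m, against 1198, 969.3 and 1129 in IH28D (-1.31, adjusted p = 0.0525). Its 3 dimmer probe sets differed by -0.36, 0.68 and 0.81, so that Rian has no single direction.

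Several proteins of the extracellular space, the membrane and the cytoskeleton had higher transcripts in 12 m. Spock3, a secreted proteoglycan of the testican family, rose 3.01-fold, with 278.3, 267.2 and 394.8 in 12 m, against 100.9, 127.3 and 84.1 in IH28D (log2 difference 1.59 ± 0.24, SE; adjusted p = 0.0127). Olfm3, a secreted olfactomedin glycoprotein of neurons, rose 2.65-fold, with 168.5, 188.8 and 355, against 74.6, 112.8 and 71.9 (1.41 ± 0.30, adjusted p = 0.0435). Array 3 of 12 m was the highest for both. Erbin, a scaffold that binds the receptor ErbB2, had 521.4, 627 and 755, against 222.5, 353.1 and 196 (1.33 ± 0.27, adjusted p = 0.0382), and its 3 probe sets differed by 1.15 to 1.44. Dmd, dystrophin, which links the actin cytoskeleton to the membrane, had 356.1, 340.1 and 369.6, against 144.7, 193.4 and 166.3 (1.09 ± 0.20, adjusted p = 0.0259). Fmn1, a formin that nucleates actin, had 103.1, 125.5 and 158.6, against 55.8, 56.5 and 57.4 (1.17 ± 0.24, adjusted p = 0.0416). In Dmd and Fmn1 the arrays of one group lay close together and far from the other group.

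The other named rises were spread over several functions. Rbm26, an RNA-binding protein, had 324.6, 331.7 and 353.3 in 12 m, against 129.8, 203.2 and 171.8 in IH28D (log2 difference 1.02 ± 0.18, SE; adjusted p = 0.0246). Cpeb2, which binds polyadenylation elements and regulates translation, had 302, 348.5 and 445.8, against 223.7, 187.5 and 212.9 (0.80 ± 0.16, adjusted p = 0.0365), though a dim probe set of it differed by -0.51. Dmxl1, a relative of the rabconnectins that assist the vacuolar proton pump, had 167.2, 187.8 and 157.6, against 63.2, 99.6 and 64.5 (1.20, adjusted p = 0.0288). The groups did not overlap in any of these. Klhl4, a kelch-like protein, and Gca, a calcium-binding protein known from granulocytes, rose by 1.18 and 1.33 (adjusted p = 0.0261 and 0.0365), and the uncharacterised B230209E15Rik by 1.38 (adjusted p = 0.0246). Slc25a36, a mitochondrial carrier of pyrimidine nucleotides, rose by 0.66 (adjusted p = 0.0487). The dim genes B3galt2, Pcdhb3, Apold1 and Trbv1, named after their values were seen, also rose. Apold1, an early response gene of endothelial cells, had 48.1, 75.9 and 83.5 in 12 m, against 26.3, 31.3 and 19.6 in IH28D (1.41, adjusted p = 0.0355). Trbv1, a segment of the T cell receptor, had 20.8, 33.8 and 128.5 in 12 m, against 16.6, 1.56 and 0.611 in IH28D. Its difference was 4.16, or 3.40 without array 3 of 12 m. Arrays 2 and 3 of IH28D were near the bottom of the scale, so that its fold is not firm. The mean of Trbv1 was 61.0 in 12 m and 6.24 to 19.3 in the other groups. It thus exceeded the minimum signal of 20 only through 12 m, and its count among the rises rests on that group.

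**Figure D3:**
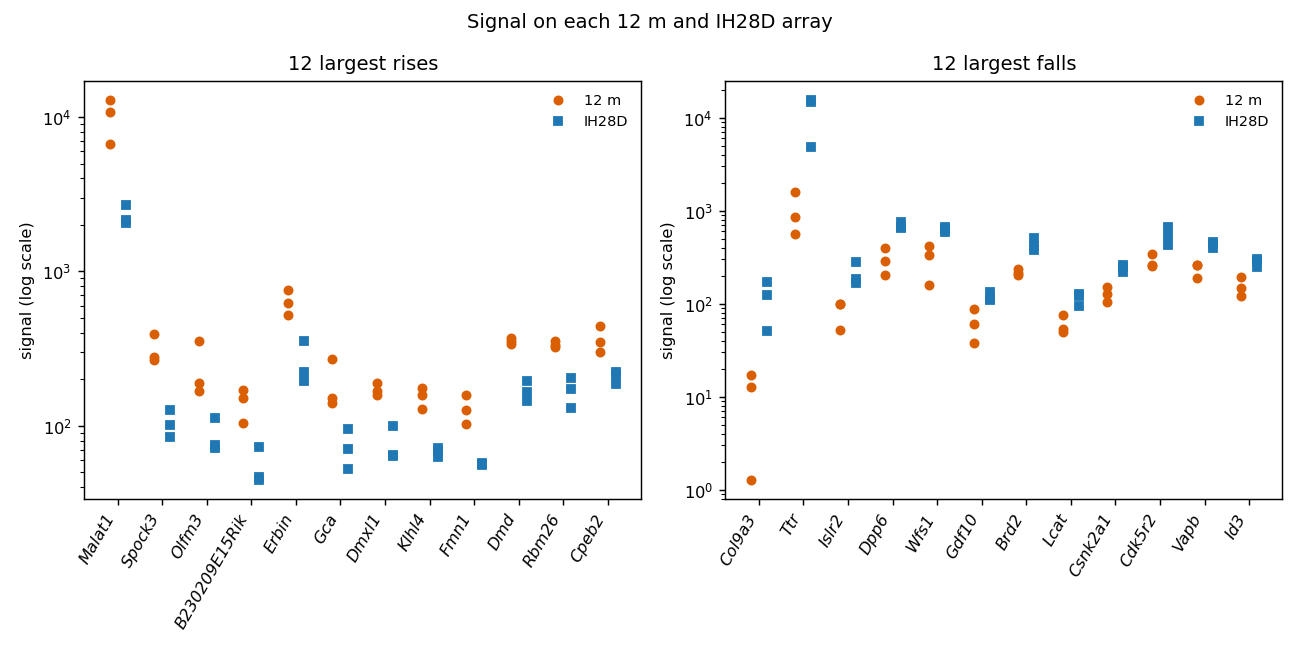
Signal on a log scale (vertical axis) of the 12 largest rises (left) and the 12 largest falls (right) that passed the test, among genes averaging 100 or more in their brighter group. Orange circles are the 3 12 m arrays and blue squares the 3 IH28D arrays of each gene, and no gene shows an overlap, which the choice of these genes required.

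Of 39 potassium channel genes 1 rose and 1 fell (0.154% and 0.309% of all genes), and the median was 0.00. Kcnj3, a subunit of the G protein-gated channel that quiets neurons, had 479.8, 577.6 and 507.7 in 12 m, against 295.1, 322.2 and 343.8 in IH28D and rose 1.63-fold (log2 difference 0.70 ± 0.15, SE; adjusted p = 0.0454). Kcnip2, an auxiliary subunit of Kv4 channels, had 358.4, 314.9 and 267.8, against 555.3, 584.3 and 483.2 and fell by 0.79 (SE 0.16, adjusted p = 0.0382). Dpp6, which codes for another auxiliary subunit of Kv4 channels, had 398.6, 284.7 and 201.7, against 660.7, 657.4 and 762.8 and fell by 1.28 (SE 0.19, adjusted p = 0.0127). In both auxiliary subunits array 3 of 12 m was the lowest array. The second probe set of Dpp6 differed by -0.42 and did not pass (adjusted p = 0.212 over all expressed probe sets). Kcnt2, a sodium-activated channel, and Kcna4, a channel of axons, had differences of 1.06 and 1.02 (adjusted p = 0.0708 and 0.108). Dpp6 was counted not with the potassium channels but among 39 long adhesion genes of neurons, of which no other passed. The median there was 0.12, and Pcdh9, a protocadherin, differed by 0.66 (adjusted p = 0.108).

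At excitatory synapses, the transcript of the scaffold PSD-95 was lower in 12 m. Dlg4, which encodes it, had 530.8, 426.8 and 531.2 in 12 m, against 764.2, 827.5 and 1013 in IH28D, and fell by 0.80 on the log2 scale (SE 0.14, adjusted p = 0.0246). All 12 m arrays lay below all IH28D arrays, and the mean of Ctrl28 (453.4) lay below that of 12 m (496.3). The second bright probe set of Dlg4 fell by 1.02 and its dim one differed by -0.50. It was the only one of 40 glutamate receptor and scaffold genes to pass. The median of that list was -0.11, with 22 below 0 and 18 above. Without the Ctrl28 arrays 3 rose and 7 fell, where 2.4% and 3.05% of all genes did. Grik5, a kainate receptor subunit, had 131.3, 140.2 and 116.5, against 242.8, 201.9 and 254.3 (-0.85, adjusted p = 0.067). Camk2a, the kinase of synaptic plasticity, had 3336, 4031 and 3800, against 5643, 5269 and 5808 (-0.59, adjusted p = 0.067), with a dimmer probe set at 0.15. Neither overlapped between the groups. Cnih2, an auxiliary protein of AMPA receptors, had 150, 172.8 and 60.6 in 12 m, against 294, 241.9 and 222 in IH28D (-1.11, adjusted p = 0.0708), and without array 3 the difference was -0.64.

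The AMPA receptor subunits did not pass. Gria1 had 1719, 1722 and 615.2 in 12 m, against 1866, 1741 and 2180 in IH28D (log2 difference -0.65, adjusted p = 0.227). With array 3 of 12 m and the Ctrl28 arrays left out, the difference was -0.16 (adjusted p = 0.489). Gria2 had 2975, 3347 and 2536, against 1689, 3004 and 1727 (0.51, adjusted p = 0.407), so that array 2 of IH28D lay among the 12 m arrays. Its other probe sets differed by 0.83 and 0.65 and did not pass (adjusted p = 0.0804 and 0.331 over probe sets). Of 52 genes of synaptic vesicle release none passed (3 higher and 7 lower at unadjusted p below 0.05), at a median of -0.01. Syt5, a synaptotagmin, Rab3b, a vesicle GTPase, and Cplx2, a complexin, differed by -0.90, -0.65 and -0.66 (adjusted p = 0.0731, 0.13 and 0.12), and Rims2, a protein of the active zone, by 0.57 (adjusted p = 0.108). Syp, synaptophysin, had 574.3, 570.3 and 596, against 1046, 941.9 and 959.9 (-0.76, adjusted p = 0.243, and 0.00121 without the Ctrl28 arrays). Slc17a7, the vesicular glutamate transporter VGluT1, differed by -0.44 (adjusted p = 0.211).

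Subunits of the inhibitory GABA receptors were mostly on the other side of 0. Of 10 tested genes 8 had higher means in 12 m, the median was 0.50, and in 4 all 12 m arrays lay above all IH28D arrays (40%, against 10.8% of all genes). None passed, and 5 had an unadjusted p below 0.05. Without the Ctrl28 arrays 3 rose, where 2.4% of all genes did, but none passed with array 3 of 12 m left out as well. Gabrb2 had 1154, 1191 and 1542 in 12 m, against 615.6, 989.2 and 685.6 in IH28D (log2 difference 0.78 ± 0.23, SE; adjusted p = 0.118). Gabra4 had 535.8, 544.8 and 620.9, against 361, 386 and 370.1 (0.60 ± 0.27, adjusted p = 0.263), and Gabra2 differed by 0.72 (adjusted p = 0.202), with a dimmer probe set at -0.51. Gabrd, which marks dentate granule cells among other neurons, had 91.2, 98.4 and 351.9, against 92.0, 69.2 and 95.2, and only array 3 of 12 m was high. Without that array the median of the list was 0.41.

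Genes that act on tau, the microtubule protein of axons, included 2 falls and no rise among 39 tested, where 0.309% of all genes fell. Cdk5r2, the p39 activator of Cdk5, had 252.7, 259.8 and 344.3 in 12 m, against 528.6, 426.6 and 671.6 in IH28D (log2 difference -0.91 ± 0.19, SE; adjusted p = 0.0435). Csnk2a1, the catalytic subunit of casein kinase 2, had 104.4, 151.2 and 126.4, against 248.8, 218.3 and 257.3 (-0.94 ± 0.19, adjusted p = 0.0378). The arrays did not overlap in either gene. Of the 6 probe sets of Csnk2a1, however, the other 5 did not pass and 1 of them differed by 0.54. The median of the list was -0.12. Mapt, the tau gene itself, had 652.7, 548.3 and 674.5, against 849.6, 839.2 and 1102 (-0.57 ± 0.13, adjusted p = 0.067), and Cdk5 had 325.9, 338.8 and 428.7, against 597.1, 501.2 and 443.3 (-0.50, adjusted p = 0.108). Both passed without the Ctrl28 arrays (adjusted p = 0.0203 for Mapt and 0.0357 for Cdk5), while a dim probe set of Cdk5 differed by 0.25. The other probe sets of Mapt differed by less, at -0.41, -0.30 and -0.23. Gsk3b, a kinase of tau, had 682, 715.6 and 791 in 12 m, against 669.2, 769.6 and 716.7 in IH28D, and Ppp2r1a, which encodes a scaffold of phosphatase PP2A, had 6352, 7046 and 6813, against 6507, 5991 and 6504. The arrays overlapped in both, at differences of 0.02 and 0.09, and dimmer probe sets of Ppp2r1a differed by -0.54 and -0.25. Mtor, the kinase of the target of rapamycin complexes, differed by -0.22 (adjusted p = 0.358).

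Further neuronal genes were lower in 12 m. Wfs1, wolframin of the endoplasmic reticulum, which marks CA1 neurons, had 413.9, 336.8 and 159.4, against 670.6, 587.9 and 630.9 in IH28D (log2 difference -1.16 ± 0.25, SE; adjusted p = 0.0487). Array 3 of 12 m was again the lowest, and without it the difference was -0.75. No gene passed in that fit, and with the Ctrl28 arrays left out as well Wfs1 passed (adjusted p = 0.00415). Further markers of pyramidal neurons, Cacng5 and Homer3, differed by -0.79 and -0.87 (adjusted p = 0.108 and 0.198), and Homer3 by -0.32 without array 3 of 12 m. The median of the 13 pyramidal genes was -0.33 with this array and -0.08 without it. Islr2, a membrane protein of growing axons, had 98.5, 98.6 and 52.2, against 168.7, 184.4 and 280.6 (-1.37 ± 0.25, adjusted p = 0.0259). Caly, calcyon, which acts in endocytosis at synapses, had 848.1, 762.2 and 436.5, against 1317, 1136 and 1143 (-0.87, adjusted p = 0.0438), and without array 3 of 12 m it differed by -0.57. Crmp1, a collapsin response mediator of axon guidance, fell by 0.75 (adjusted p = 0.0365). Vapb, which tethers the endoplasmic reticulum to other membranes, had 258.2, 260.6 and 189.3, against 437.6, 392.3 and 458.8 (-0.88 ± 0.12, adjusted p = 0.0127). Its other probe sets, of like brightness, differed by only -0.09 and -0.17.

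In the regulated secretory pathway, 2 of 14 genes fell and none rose, where 0.309% of all genes fell, at a median of -0.03. Ptprn2, a membrane protein of dense core vesicles, had 937.8, 838.1 and 915.2 in 12 m, against 1373, 1281 and 1428 in IH28D (log2 difference -0.60 ± 0.12, SE; adjusted p = 0.0365). Pcsk1n, the inhibitor of prohormone convertase 1 known as proSAAS, had 747, 714.2 and 886.7, against 1453, 1052 and 1300 (-0.69 ± 0.14, adjusted p = 0.0365). The 12 m arrays lay below the IH28D arrays in both. Cadps, which primes these vesicles, and Scg3, a granin, differed by 0.40 and 0.19 (adjusted p = 0.121 and 0.36). The list thus held falls of these 2 genes without a shift of its median.

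Of 78 chromatin regulators 3 fell and none rose, where 0.309% of all genes fell, and the median was -0.07, against -0.06 over all genes. Brd2, a bromodomain protein that reads acetylated histones, had 202.5, 234 and 212.4 in 12 m, against 420.2, 374.2 and 509.8 in IH28D (log2 difference -0.998 ± 0.153, SE; adjusted p = 0.0127). Its second probe set, also bright, differed by -0.22. Sirt2, a deacetylase that oligodendrocytes express strongly, had 321.1, 381.8 and 376.3, against 569.6, 527.8 and 599.3 (-0.66 ± 0.13, adjusted p = 0.0365). Arid1a, a subunit of the SWI/SNF remodelling complex, had 543, 481.8 and 532, against 697.1, 685 and 846.1 (-0.51 ± 0.11, adjusted p = 0.0411). In all 3 the groups stood apart. Kdm4a, a histone demethylase, differed by -0.65 (adjusted p = 0.0768).

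Genes of vessels, matrix and glia were among the falls as well. Sparc, a matrix protein that astrocytes, microglia and vessels secrete, had 638.8, 639 and 624.1 in 12 m, against 1040, 940.7 and 1137 in IH28D (log2 difference -0.71 ± 0.12, SE; adjusted p = 0.0246), and its second probe set fell by 0.98. Sox18, a transcription factor of endothelial cells, had 45.2, 25.9 and 31.5, against 69.9, 64.0 and 99.3 (-1.20, adjusted p = 0.0259). Id3, an inhibitor of basic helix-loop-helix factors, had 191.7, 148.2 and 122.1, against 299.9, 285.3 and 246 (-0.87, adjusted p = 0.0378). No array of 12 m reached the lowest IH28D array in these genes. Gdf10, a ligand of the TGF beta family, and Cygb, cytoglobin, a heme protein that binds oxygen, fell by 1.02 and 0.99 (adjusted p = 0.0416 and 0.0387). Lcat, which esterifies cholesterol on lipoproteins, had 74.8, 49.6 and 53.0, against 126.3, 95.4 and 121.8 (-0.97, adjusted p = 0.0259). It was the only one of 27 cholesterol genes to pass, and Hmgcs1, an enzyme of cholesterol synthesis, differed by 0.51 (adjusted p = 0.0859).

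In the marker lists of vessels and glia no gene passed, and the list medians lay near 0. None of 22 genes of endothelial cells and pericytes passed (1 lower at unadjusted p below 0.05, median -0.09), and Bsg, basigin, differed by -0.75 (adjusted p = 0.0766). None of 22 astrocyte genes (median -0.05), 18 of microglia and complement (0.06), 20 of myelin and oligodendrocytes (0.00), 11 of oligodendrocyte precursors (-0.09) or 16 of interferon and MHC class I (0.01) passed. At unadjusted p below 0.05 these 5 lists held 7 genes higher and 9 lower in 12 m. Aqp4, the water channel of astrocyte endfeet, had 807.8, 851.9 and 537.2, against 427.2, 508.6 and 461.3 (0.63, adjusted p = 0.137), and its dimmer probe set differed by -0.43. Ctss, the protease cathepsin S of microglia, had 825.6, 780.8 and 798.7, against 672.8, 457 and 570.4 (0.52, adjusted p = 0.105). Gpr17, a receptor of oligodendrocyte precursors, differed by -0.97 (adjusted p = 0.071). The 95% interval lay within 2-fold for 19 of 22 astrocyte genes and 15 of 18 microglial genes, against 80.6% of all genes. It did so for 16 of 20 myelin genes and 9 of 11 precursor genes, but only for 7 of 16 interferon and MHC class I genes. Among the myelin genes all 12 m arrays lay above all IH28D arrays in 5 (25%) and below in 8 (40%). Of all genes 10.8% and 15.3% did so.

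Pfn1, profilin, which binds actin monomers, had 360.9, 305.5 and 241.8 in 12 m, against 587.3, 515.2 and 522.9 in IH28D (log2 difference -0.86 ± 0.18, SE; adjusted p = 0.0384). The falls that remain were chosen after their values were seen. Lancl1, a glutathione-binding protein of neurons, fell by 0.60 (adjusted p = 0.0305), but its second probe set differed by 0.23. Ccnd3, cyclin D3, fell by 0.72 (adjusted p = 0.0367), Itpk1, a kinase of inositol phosphates, by 0.63 (adjusted p = 0.0435) and Mlf2 by 0.85 (adjusted p = 0.0259). Entpd6, a nucleotide-hydrolysing enzyme, fell by 1.05, Dennd2a, an exchange factor of Rab proteins, by 0.76, and Fam118b by 0.84. The dim genes Sdr39u1 and 1700007K13Rik fell by 1.63 and 1.55. Fjx1 fell by 0.75, with a second probe set at -0.02. Rps4l, a copy of a ribosomal protein gene, fell by 0.83, though its probes may not tell such copies apart.

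Immediate early genes, which neuronal activity and stress induce within minutes, had mostly higher means in 12 m. Of 33 tested, 23 were above 0, at a median of 0.31, and in 11 all 12 m arrays lay above all IH28D arrays (33.3%, against 10.8% of all genes), while in none did they all lie below (15.3% of all genes). None passed, with 8 higher and 1 lower at unadjusted p below 0.05. Without the Ctrl28 arrays 2 rose, where 2.4% of all genes did, but none with array 3 of 12 m left out as well. The means of the list were 7.73, 7.80 and 8.05 in 12 m and 7.42, 7.34 and 7.83 in IH28D, and without array 3 of 12 m the median was 0.22. Many of these genes carry binding sites of the cAMP-responsive factor CREB near their start, and 4 promoters of members with high 12 m signals are shown for that reason. They are RefSeq sequences of build GRCm38.p6, 250 bases before to 50 after the start of each gene, read along its strand. Capitals mark the core TGACG on either strand, which lies within the full element TGACGTCA. They belong to Dusp1 (chr17:26508423-26508722, minus strand), Fos (chr12:85473640-85473939, plus strand), Ccn1 (chr3:145649936-145650235, minus strand) and Junb (chr8:84978699-84978998, minus strand).
Dusp1: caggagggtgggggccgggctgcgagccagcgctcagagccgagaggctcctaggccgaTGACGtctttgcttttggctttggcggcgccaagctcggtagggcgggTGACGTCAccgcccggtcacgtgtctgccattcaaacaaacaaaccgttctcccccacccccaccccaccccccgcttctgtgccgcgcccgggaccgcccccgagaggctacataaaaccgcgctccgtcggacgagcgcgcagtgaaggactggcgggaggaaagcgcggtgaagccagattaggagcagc
Fos: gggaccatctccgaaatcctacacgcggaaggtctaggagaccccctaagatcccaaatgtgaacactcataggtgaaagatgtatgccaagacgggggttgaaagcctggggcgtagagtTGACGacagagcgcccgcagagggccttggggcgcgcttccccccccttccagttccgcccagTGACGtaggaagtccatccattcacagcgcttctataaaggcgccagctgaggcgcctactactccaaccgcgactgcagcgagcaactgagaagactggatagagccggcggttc
Ccn1: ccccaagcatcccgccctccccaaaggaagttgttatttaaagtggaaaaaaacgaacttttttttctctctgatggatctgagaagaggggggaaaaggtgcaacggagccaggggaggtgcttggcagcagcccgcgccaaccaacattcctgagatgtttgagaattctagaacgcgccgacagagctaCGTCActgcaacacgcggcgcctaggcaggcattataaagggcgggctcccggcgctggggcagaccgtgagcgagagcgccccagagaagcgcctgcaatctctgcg
Junb: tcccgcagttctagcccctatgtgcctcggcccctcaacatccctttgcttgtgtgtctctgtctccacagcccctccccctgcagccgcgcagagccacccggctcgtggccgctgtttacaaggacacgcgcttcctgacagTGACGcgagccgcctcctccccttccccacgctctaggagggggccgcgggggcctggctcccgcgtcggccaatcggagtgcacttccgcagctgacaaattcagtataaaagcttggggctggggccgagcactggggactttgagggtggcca
This core occurred in 20 of 38 promoters of the list (52.6%), which belong to 26 genes, and in 20.8% of all 32851 promoters, and the full element in 5.26% and 1.79% of them. The TATA box TATAAA, on either strand, occurred in 18.4% and 13.6%.

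The genes of these promoters had the following signals. Ccn1, a matrix protein that growth factors induce, had 43.9, 85.9 and 167.4 in 12 m, against 26.4, 18.7 and 28.8 in IH28D (log2 difference 1.82 ± 0.42, SE; adjusted p = 0.0604). Dusp1, a phosphatase that switches off MAP kinases, had 384.8, 524.1 and 867.4, against 292.9, 239.2 and 338.9 (0.96 ± 0.30, adjusted p = 0.138). Fos, the activity-induced AP-1 subunit, had 569.4, 731.6 and 1281, against 306, 291.4 and 420.8 (1.28 ± 0.56, adjusted p = 0.246). Array 3 of 12 m was the highest in all of them, and the groups did not overlap. Junb had 129.4, 138.4 and 162.1, against 96.2, 92.1 and 95.7 (0.59, adjusted p = 0.153), and Egr2, a zinc finger factor, had 59.2, 64.6 and 84.6, against 20.5, 29.6 and 48.7 (1.15, adjusted p = 0.13). Jun had 426.9, 347.5 and 182.1 in 12 m, against 465.1, 410.1 and 510.7 in IH28D, and differed by -0.62 (adjusted p = 0.165), and by -0.26 without array 3. Arc and Npas4, which are specific to neuronal activity, differed by 0.37 and 0.67 (adjusted p = 0.717 and 0.764), their arrays overlapped, and without array 3 of 12 m the differences were 0.15 and 0.17.

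**Figure D4:**
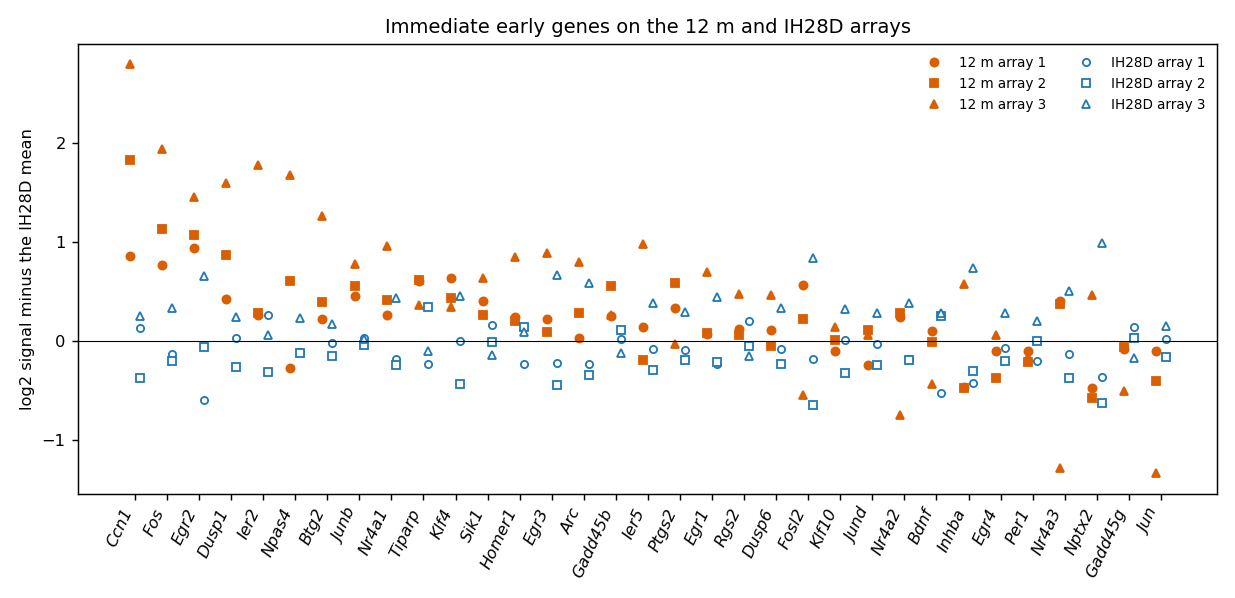
Log2 signal minus the IH28D mean (vertical axis) of 33 immediate early genes (horizontal axis, ordered by the mean difference), with 12 m arrays filled in orange and IH28D arrays open in blue. Ccn1, Fos, Egr2 and Dusp1 are at the high end, where array 3 of 12 m lies highest, and Jun is at the low end.

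Of the clock genes none of 21 passed (2 higher and 1 lower at unadjusted p below 0.05), and the median was -0.15. Dbp, an output gene of the clock with a large daily swing, had 733.5, 633.8 and 980.3 in 12 m, against 927.2, 786.3 and 759.7 in IH28D (log2 difference -0.09, adjusted p = 0.862). Per1 had 247.2, 228.7 and 237.6, against 230.9, 265.6 and 305.9 (-0.16, adjusted p = 0.728), and Per2 differed by -0.30 (adjusted p = 0.359). The arrays of both groups overlapped in these genes. Nr1d1, a repressor of the clock, differed by -0.37 (adjusted p = 0.802), and Cry2 by -0.39 (adjusted p = 0.142). Rorb and Rora, which neurons of other brain regions express strongly, were high on array 3 of 12 m, with 127.9, 143.6 and 347.6 for Rorb, against 78.8, 83.3 and 85.0 in IH28D, and without that array Rorb and Rora differed by 0.72 and 0.51. The E-box CACGTG occurred in 18.5% of promoters of this list and in 7.15% of all promoters.

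Targets of hypoxia-inducible factors, which low oxygen induces, did not stand higher in IH28D as a list. None of 27 passed (1 higher and 3 lower in 12 m at unadjusted p below 0.05), and the median was -0.08, against -0.06 over all genes. The 95% interval lay within 2-fold for 25 of the 27. Vegfa, the vascular growth factor, had 112.9, 110.4 and 146.8 in 12 m, against 106.6, 106.1 and 76.1 in IH28D (log2 difference 0.36, adjusted p = 0.371, or 0.23 without array 3 of 12 m and 0.20 without array 3 of IH28D). Hif1a, the oxygen-regulated subunit itself, had 755.3, 764.4 and 733, against 542.5, 583.7 and 552 (0.43, adjusted p = 0.215). Ldha, lactate dehydrogenase, had 1112, 904.1 and 1170, against 1653, 1605 and 1310 (-0.52, adjusted p = 0.136), and Hif3a, a factor of the same family, had 16.3, 21.6 and 23, against 50.2, 36.8 and 42.0 (-1.09, adjusted p = 0.144). The groups did not overlap in these 4 genes, with Vegfa and Hif1a higher and Ldha and Hif3a lower in 12 m. Over the list this was near the share of all genes. All 12 m arrays lay above all IH28D arrays in 3 members (11.1%, against 10.8%) and below in 5 (18.5%, against 15.3%). The core motif ACGTG occurred in 57.1% of promoters of the list and in 19.6% of all promoters.

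Glucocorticoid targets had lower means in 12 m in 20 of 27 cases, at a median of -0.27, and in 12 the 12 m arrays all lay below the IH28D arrays (44.4%, against 15.3% of all genes). None passed (2 higher and 9 lower at unadjusted p below 0.05). Without the Ctrl28 arrays 2 rose and 5 fell, where 2.4% and 3.05% of all genes did. Zbtb16, a zinc finger factor that this hormone induces, had 232.4, 239.5 and 180.1 in 12 m, against 294.4, 290.7 and 437.1 in IH28D (log2 difference -0.63 ± 0.16, SE; adjusted p = 0.0794). A probe set of like brightness differed by -0.23 and a dim one by 0.18. Plin4, a lipid droplet protein, had 18.1, 36.5 and 24.9, against 53.7, 70.7 and 76.7 (-1.38, adjusted p = 0.122). Mt2, a metallothionein, had 1799, 1894 and 1197, against 2925, 2677 and 2652 (-0.78, adjusted p = 0.138). All 3 were lower on every 12 m array than on any IH28D array. Fkbp5, the cochaperone of the hormone receptor, differed by -0.44 (adjusted p = 0.159), or -0.25 without array 3 of 12 m, and Sgk1, a kinase that the hormone induces, by 0.20 (adjusted p = 0.634).

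In energy metabolism, none of 72 genes of oxidative phosphorylation passed. At unadjusted p below 0.05, 7 of them were lower and none higher, where 11.1% of all genes were lower and 6.58% higher. The median was -0.08, and for all 72 the 95% interval lay within 2-fold. Uqcrc1, a core subunit of complex III, had 1215, 1003 and 1285 in 12 m, against 2006, 1563 and 1454 in IH28D (log2 difference -0.51, adjusted p = 0.0873). None of 75 mitochondrial ribosomal protein genes passed either (10 lower at unadjusted p below 0.05, beside the same 11.1% of all genes). The interval lay within 2-fold for all 75, and the median was -0.19 with 62 of them below 0. Mrpl4, one of these, had 247.8, 247 and 246.3, against 343.6, 307.6 and 376 (-0.47, adjusted p = 0.13). Among 17 glycolysis genes none passed (6 lower at unadjusted p below 0.05), at a median of -0.22, and 9 had all 12 m arrays below all IH28D arrays (52.9%, against 15.3% of all genes). Pkm, pyruvate kinase, had 1128, 1181 and 1189, against 1601, 1478 and 1466 (-0.38, adjusted p = 0.161), and Pfkl, a phosphofructokinase, had 209.4, 209 and 102.2, against 284.8, 280.9 and 298.6 (-0.81, adjusted p = 0.157). In both the groups did not overlap, but without array 3 of 12 m Pfkl differed by -0.46, and its other probe sets differed by -0.11 and 0.18. The median of 42 cytosolic ribosomal protein genes was -0.01 and none passed (2 higher and 1 lower at unadjusted p below 0.05).

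Antioxidant enzymes had means below IH28D in 30 of 35 cases and amyloid genes in 18 of 19, against 6707 of 11656 genes overall. None passed in either list, with 7 lower among antioxidant enzymes and 1 higher and 5 lower among amyloid genes at unadjusted p below 0.05, and the medians were -0.17 and -0.18. Gstm1, a glutathione transferase, had 672.4, 630.8 and 537.3 in 12 m, against 977, 683.2 and 963.8 in IH28D (log2 difference -0.50, adjusted p = 0.108), and Txn2, the mitochondrial thioredoxin, differed by -0.44 (adjusted p = 0.161). Aph1a, a subunit of gamma-secretase, had 151.7, 133.2 and 127.4, against 195.8, 199.9 and 189.5 (-0.51, adjusted p = 0.0756), with a dim probe set at 0.29. Apba2, an adaptor that binds the amyloid precursor protein, differed by -0.42 (adjusted p = 0.105). Arrays of 12 m lay below those of IH28D in Gstm1, Aph1a and Apba2.

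RNA processing and protein turnover held higher and lower members side by side. Of 92 splicing factors none passed (13 higher and 8 lower at unadjusted p below 0.05), and 51 were above 0. Without the Ctrl28 arrays 8 rose and 5 fell, where 2.4% and 3.05% of all genes did. Prpf4b, a splicing kinase, had 439.8, 458.1 and 491.6 in 12 m, against 252.6, 319.3 and 254.2 in IH28D (log2 difference 0.76, adjusted p = 0.067). Mbnl2, a regulator of splicing in the brain, had 1645, 1842 and 1706, against 990.6, 1383 and 1079 (0.60, adjusted p = 0.108), with a dim probe set at -0.37. U2af1, which recognises the 3' splice site, had 374.6, 310.9 and 344.1, against 488.5, 468.4 and 465.2 (-0.47, adjusted p = 0.0545), and Hnrnpa0, an hnRNP protein, differed by -0.42 (adjusted p = 0.068). Their arrays did not overlap between the groups. Dicer1, the nuclease that makes microRNAs, had 190.2, 194.1 and 195, against 148.5, 148.5 and 159 (0.35, adjusted p = 0.198). Of 35 proteasome genes none passed (1 higher and 8 lower at unadjusted p below 0.05, against 6.58% and 11.1% of all genes). Psmb2, a core subunit, differed by -0.47 (adjusted p = 0.067). Of 47 heat shock proteins and chaperones none passed (4 higher and 9 lower at unadjusted p below 0.05). Manf, a secreted factor of the stressed endoplasmic reticulum, and Hspa5, its main chaperone, differed by -0.75 and -0.56 (adjusted p = 0.0525 and 0.14, and -0.31 for Hspa5 without array 3 of IH28D), and Hspb8, a small heat shock protein, by -0.90 (adjusted p = 0.0953). The heat shock element GAANNTTC occurred in 30.2% of promoters of this list and in 7.86% of all promoters.

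**Figure D5:**
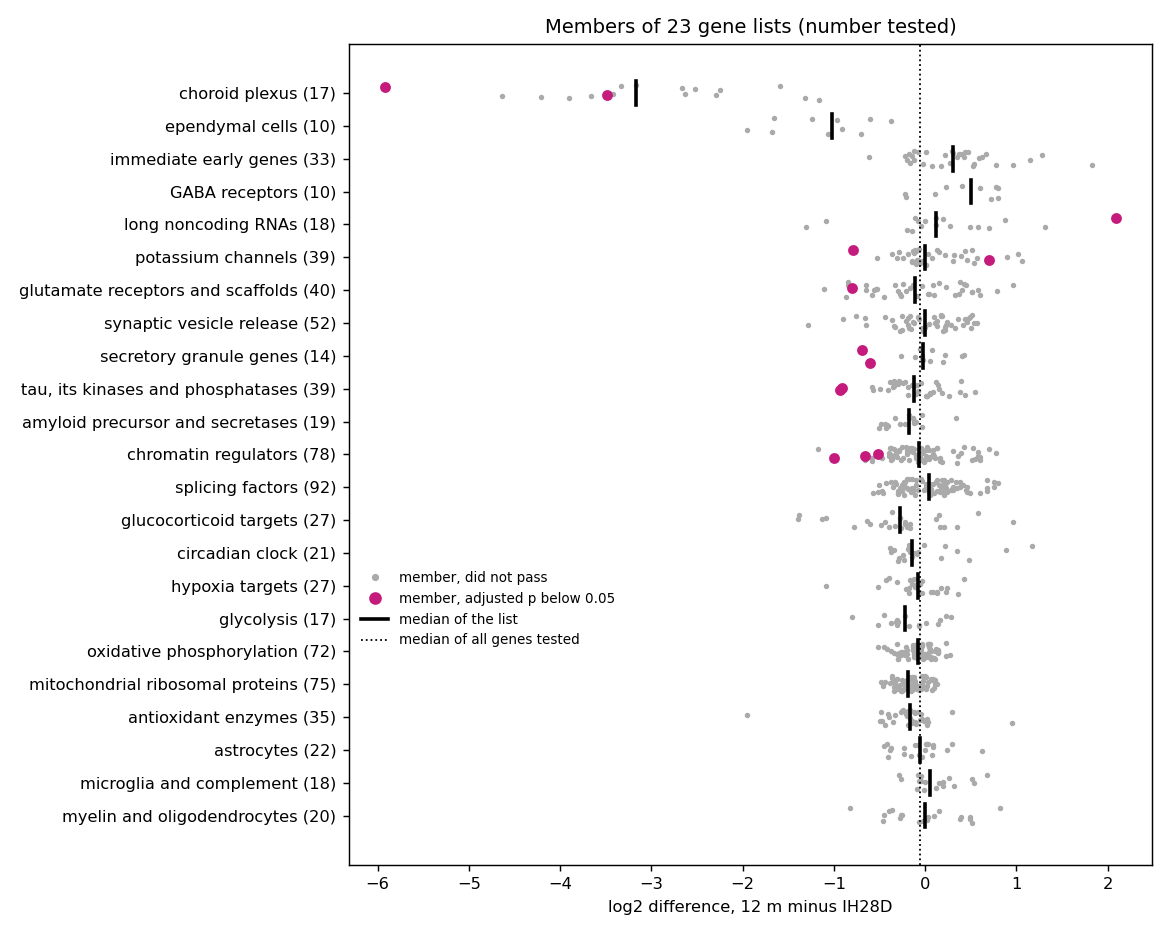
Log2 difference of 12 m minus IH28D (horizontal axis) of the members of 23 gene lists (rows, with the number of members tested). Grey points did not pass, pink points passed at adjusted p below 0.05, black bars are list medians and the dotted line is the median of all genes; the choroid plexus and ependymal lists lie far to the left, and most other medians lie close to the line.

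Against the other groups, 12 m was mostly at the end of the range for the genes that passed, which the choice of these genes favours. For all 18 rises the mean of 12 m was the highest of the 6 groups (21% of all genes), and for 28 of 36 falls it was the lowest (30.4% of all genes). IH28D lay between 12 m and Ctrl in 15 of the 18 rises, against 56.5% of all genes with higher means in 12 m, and in 28 of the 36 falls, against 69% of those with lower means. Malat1 thus had a mean of 10130 in 12 m, 2310 in IH28D, 3071 in Ctrl28 and 895 in Ctrl. The mean of Ctrl28 was beyond that of 12 m in 8 of the falls. One of these was Mlf2, with 397.1 ± 35.8 in 12 m, 714 ± 63.5 in IH28D, 229 in Ctrl28 and 801 in Ctrl (SD, n = 3 arrays). The others were Arid1a, Caly, Dlg4, Kcnip2, Lcat, Pcsk1n and Pfn1, so that their low levels were not particular to 12 m.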

How the data were processed

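RNA of mouse hippocampus was hybridised to Affymetrix Mouse Genome 430 2.0 arrays. The deposited values are log2 signals, which the authors computed with MAS5, scaled to a common trimmed mean per array. Probe sets were named from the platform annotation: 34945 of 45101 have 1 gene, 932 several and 9160 none, and 64 are controls. For each gene the probe set of highest mean signal was kept if its mean unlogged signal exceeded 20, which left 11656 genes. Median signals per array were 21.4 to 24.3 in 12 m and 20.4 to 23.2 in IH28D, and the number of arrays limits the precision.

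All 18 arrays were fitted with limma 3.58.1 (R 4.3.3) with 6 group means, a variance trend and Benjamini-Hochberg adjustment over all genes, after tests on simulated data. All log2 differences are 12 m minus IH28D, signals are unlogged, and passing means an adjusted p below 0.05. The genes named are the 12 largest rises and 12 largest falls averaging 100 or more in the brighter group, without overlap of arrays, up to 4 members of smallest p in each list, genes fixed by name, and genes named for a measured limit. Members and lists were chosen with earlier results of these data known. Promoters came from RefSeq (GRCm38.p6). Alternatives were other scalings, minimums, probe set rules, sets of arrays, a replicate block, weighted arrays, the end gap of Actb and Gapdh as covariate and the methods' t-test.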

Additional observations from a re-analysis of the deposited data

How the results depend on the processing

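The counts of genes depended on the processing, while each of the 54 genes that passed kept its sign under every alternative run on it. Against 18 rises and 36 falls, quantile normalization gave 45 and 66, median centring 18 and 21 (46.2% rises, against 33.3%), no minimum signal 10 and 29, a minimum of 100 gave 9 and 26, log2(signal + 20) 39 and 49, a fit lacking the variance trend 10 and 10, averaged probe sets of a gene 11 and 27, and the 2 groups alone 10 and 4. Without the Ctrl28 arrays there were 280 and 355, with array weights 339 and 426, and with the end gap as covariate 856 and 1029. The methods' t-test gave 626 and 740 at unadjusted p below 0.05, and 0 and 0 after adjustment. Leaving out 1 array of 12 m or IH28D gave 0 to 23 rises and 0 to 67 falls. The low counts came without array 2 or 3 of 12 m (1 and 4, 0 and 0) or array 1 or 3 of IH28D (1 and 0, 0 and 0). Chosen after seeing the data, leaving out array 1 of Ctrl28 gave 342 and 471, leaving out array 3 of 12 m with the Ctrl28 arrays 132 and 194, and counting all expressed probe sets 39 and 67.

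Nothing in the labels pairs same-numbered arrays. Their deviations correlated at 0.0127, 0.0537 and 0.00149 between 12 m and IH28D, and over all pairs of the 6 groups at -0.365 to 0.402, with 13 of 45 above 0.1. Differently numbered arrays of the 6 groups gave -0.297 to 0.336, with 15 of 90 above 0.1. The replicate block gave 18 rises and 61 falls, and 1 and 1 with the 2 groups alone. Signs changed only for named genes that did not pass: Gsk3b (-0.0041 with array weights, -0.038 without array 3 of 12 m, with or without the Ctrl28 arrays, and -0.029 to 0.072 over the other arrays left out), Ppp2r1a (-0.11 by averaged probe sets, -0.16 with the end gap as covariate) and Dbp (-0.27 to 0.046 over arrays left out). The causes were not tested. Over all alternatives, named genes that passed did so again in 709 cases and not in 514. The genes followed here that had not passed, some of them not named above, did so in 297. Few arrays limit what can be detected, and signals near the bottom of the scale, as for Slc4a5, have no firm fold.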
